A study of Homo sapiens with 6 samples.

Results

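Cyclins and cyclin-dependent kinases (CDKs) drive the cell division cycle. Here 10 of these genes were examined after siRNA transfection, in cells labelled K562, a human erythroleukemia line. The values of some marker genes, given below, did not bear out that label. The 10 genes are the kinases CDK1, CDK2, CDK4 and CDK6, the cyclins CCNA2, CCNB1, CCND1, CCNE1 and CCNE2, and the CDK inhibitor gene CDKN1B. They were taken by gene symbol from a table of 57150 genes, and each symbol matched 1 row. The study transfected 3 pools of K562 cells with siRNAs that co-target αCP1 and αCP2, the poly(C)-binding proteins encoded by PCBP1 and PCBP2, and a further 3 pools with control siRNAs. RNA was collected 72 h later, and the labels name no other genotype or treatment. The table gives, for each gene, 1 FPKM value (fragments per kilobase of transcript, scaled to the number of fragments mapped) and 1 estimated count under the label KD, for the αCP1/2 siRNAs, and under the label CTRL. These are called the KD and the CTRL column here. The libraries of a group are not separated, so no spread between pools could be computed, no test was run, and every interval given here is a 95% interval for counting error only.

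CDKs are inactive without a cyclin. In the textbook cycle, D-type cyclins with CDK4 or CDK6 begin the phosphorylation of the retinoblastoma protein in G1, cyclin E with CDK2 acts at the entry into S phase, cyclin A with CDK2 acts during S phase, and cyclin B with CDK1 drives mitosis. CDKN1B (p27) binds and restrains the cyclin complexes of CDK2. CDK2 has a further place in the study, because its exon 5 is a cassette exon, one that can be included or skipped, whose dependence on αCPs was examined.

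Some facts of the table limit the values below. Total estimated counts were 13699340 (KD) and 11680567 (CTRL). The targeted genes did not bear out the label KD: the FPKM of PCBP1 was 184.1 (KD) and 187.8 (CTRL) and that of PCBP2 was 530.8 and 342.4, so PCBP1 was nearly equal on FPKM and PCBP2 was higher under the label KD, also as a share of the total count of its column (log2 ratio 0.37). Each direction below is therefore one between columns as labelled. Of 10 erythroid and hematopoietic marker genes, 4, namely GATA1, KLF1, TAL1 and HBZ, had values of 0 throughout and 6 were under 1 in each column, while the embryonic globin gene HBE1 was at 152.9 FPKM (KD) and 35.4 FPKM (CTRL). The summed FPKM of the list was 161.6 in the KD column and 43.4 in the CTRL column, most of it HBE1. Of 8 epithelial genes, 5 exceeded an FPKM of 5 in each column, KRT19 was listed at 0 in both, CDH1 was at 0.363 and 0.426, EPCAM was at 3.94 and 3.26, and the summed FPKM of 4421 and 3202 was mostly that of KRT7, KRT8 and KRT18. The log2 ratio of FPKM was also related to the GC content of the gene: with the genes split by GC content into 4 groups of equal size, its median was -0.24 in the group of lowest and 0.47 in the group of highest GC content. The part of these differences in the results was not tested.

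The cassette exon of CDK2 is shown first, because it is the sequence of these genes that the study examined. CDK2 lies on the plus strand of chromosome 12 from 56360565 to 56366573 in GRCh37, the build named hg19 in the processing notes. Exon 5 of its protein-coding transcript of 2240 nt spans 56363259 to 56363360, is coding and is 102 nt long. It is printed below in capitals with 50 nt of each neighbouring intron in lower case, chr12:56363209-56363410 in GRCh37.
CDK2 exon 5: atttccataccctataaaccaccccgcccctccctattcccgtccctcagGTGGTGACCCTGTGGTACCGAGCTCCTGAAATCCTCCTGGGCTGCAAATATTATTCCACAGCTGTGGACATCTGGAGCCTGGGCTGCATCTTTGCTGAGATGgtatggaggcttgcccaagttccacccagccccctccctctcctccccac
The 50 nt before the exon, which end in the splice acceptor, are 50% C and 24% T, and their longest run of C is 4 and of T is 3. The 50 nt after the exon are also 50% C, with 20% T and a longest run of C of 5. The exon itself is 25.5% C. C-rich tracts of this kind are the sites that αCPs bind. Of 4 protein-coding CDK2 transcripts in GENCODE release 44, 2 lack exon 5, and the gene table holds no value by exon or transcript, so its inclusion was not analysed here.

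**Figure D1:**
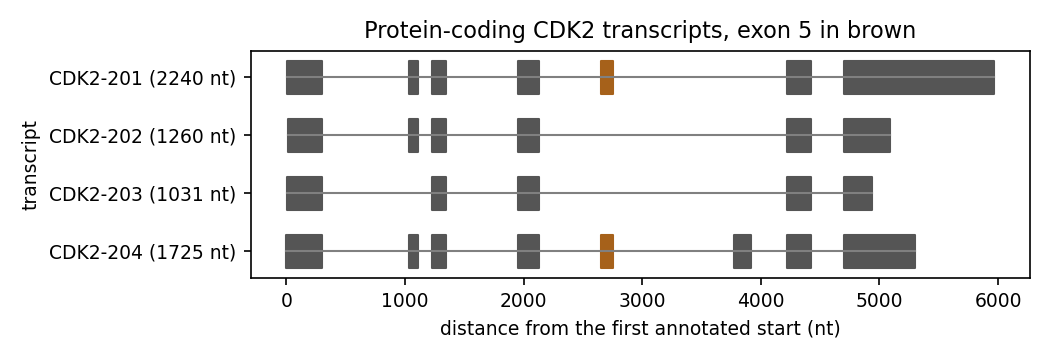
Exons (boxes) of the 4 protein-coding CDK2 transcripts of GENCODE release 44, by distance in nt from the first annotated start, with exon 5 in brown. The transcripts of 2240 and 1725 nt hold exon 5, and those of 1260 and 1031 nt lack it.

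CDK2, the partner of cyclins E and A, had more FPKM in the KD column but not more reads. Its FPKM was 91.0 (86.5 to 95.7) in the KD column and 62.7 (59.6 to 65.8) in the CTRL column. This is a log2 ratio of 0.53. All FPKM log2 ratios here compare the columns, KD over CTRL, after adding 1 to each FPKM, a scale on which differences of low genes appear too small. The estimated counts behind these values were 1528 and 1592, a log2 ratio of -0.059 (-0.16 to 0.04), so that the counts differed by less than the counting error. As shares of the total count of each column, the log2 ratio was -0.29 (-0.39 to -0.19). The direction of CDK2 thus turned with the scale: FPKM was higher and the share of counts was lower in the KD column. The median of all genes on count shares was -0.21, and relative to it CDK2 was at -0.08, within its counting error, so the lower share was not set apart from that of a typical gene. CDK2 stood at 0.42 once the fitted dependence of the log2 ratio on GC content and transcript length, called the trend here, had been subtracted.

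The difference between the scales of CDK2 lies in the estimated count that stands behind each unit of FPKM. For CDK2 this was 16.8 counts per FPKM in the KD column and 25.4 in the CTRL column, a ratio of 0.661. Among 9534 genes with at least 100 counts in each column, the median ratio was 1.002 and the range from the 5th to the 95th percentile was 0.813 to 1.247. A ratio as low as that of CDK2 or lower was found for 89 of these genes (0.934%). A ratio of 0.8 or less, or of its inverse or more, was found for 9.25% of the 9534 genes. It was found for 1.48% of the 607 genes with 1 annotated transcript and for 9.84% of the 8791 genes with more than 1. CDK2 has 12 annotated transcripts. Of the other 9 cell cycle genes, 8 had ratios from 0.990 to 1.09, and CCNE2 had a ratio of 1.22 from 95.1 and 168.4 counts, which places it below the minimum for the set of 9534 genes. CDK2 exons also overlap PMEL on the opposite strand, which had 1.63 FPKM in the KD column and 1.06 in the CTRL column, and the library kit does not mark strand.

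**Figure D2:**
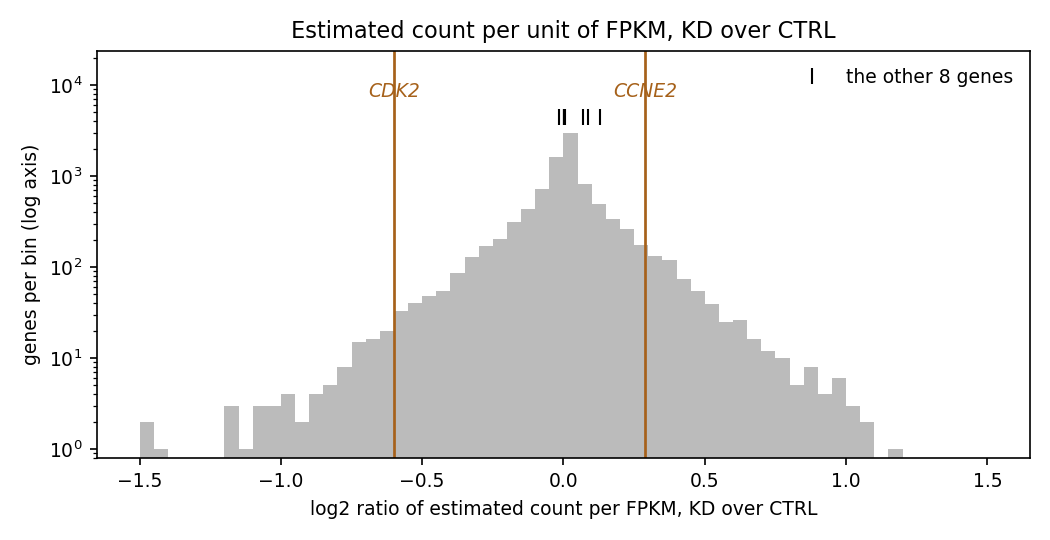
Number of genes (log axis) by the log2 ratio of estimated count per unit of FPKM, KD column over CTRL column, for 9534 genes with at least 100 counts in each column. Values beyond the axis stand in the end bins. CDK2 lies at -0.60 and CCNE2 at 0.29, and the short black marks of the other 8 genes lie between -0.01 and 0.13.

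Across the 10 genes, all of which passed the filter of a mean FPKM of at least 1, the cyclins were lower and the kinases differed among themselves. All 5 cyclins had a lower FPKM in the KD column, with log2 ratios from -1.14 to -0.65. The median of the 10 log2 ratios was -0.67, while the median of all 13741 genes that passed was 0.01. Of the 10 genes, 7 were below 0 and 3 above 0, against 48.9% of all genes below 0. On count shares 9 of the 10 were below 0 (61.9% of all genes), and with the trend removed 8 were (50.8%). At a log2 ratio of FPKM of 1 or more, 1 of the 10 genes (CDK6) was higher, as were 8.51% of the 13741 genes. At a log2 ratio of -1 or less, 1 of the 10 (CCND1) was lower, against 3.27% of all genes. On shares of counts, 0 of the 10 were higher by 1 or more (6.92% of all genes) and 3 were lower by 1 or more (9.83% of all genes), namely CCND1, CCNA2 and CCNE2. Relative to the median of all genes on that scale, CCND1 was at -1.19, CCNA2 at -0.88 and CCNE2 at -0.84, so CCND1 alone passed -1. Relative to the same median CDK6 was at 1.02, past 1. With the trend removed, CDK6 was again higher (5.15% of 13298 genes) and CCND1 lower (3.63%). The counts of 1 to 3 among 10 genes are too few to set apart from these shares.

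**Figure D3:**
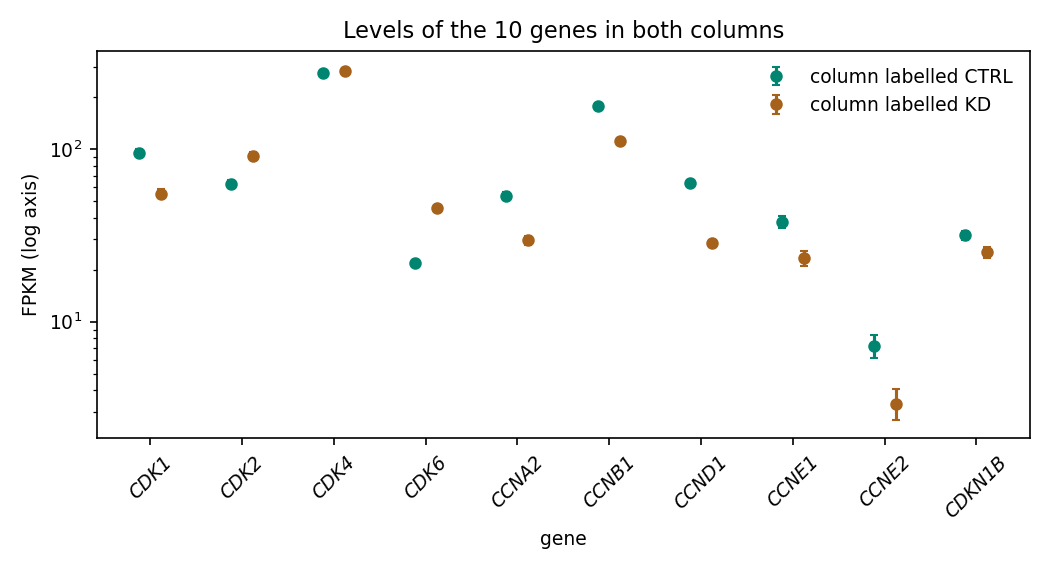
FPKM (log axis) of the 10 genes in the CTRL column (green) and the KD column (brown), with bars for the 95% Poisson interval of the counts, smaller than the point for most genes. Each of the 5 cyclins is lower in the KD column, CDK6 and CDK2 are higher, and CDK4 is near 280 FPKM in both.

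CCND1, a D-type cyclin that partners CDK4 and CDK6 in G1, had the lowest log2 ratio of the 10. Its FPKM was 28.4 (27.0 to 29.9) in the KD column and 63.8 (61.7 to 66.0) in the CTRL column, a log2 ratio of -1.14. Its counts were 1482 and 3324, and the log2 ratio of its count shares was -1.40 (-1.48 to -1.31). With the trend removed it was at -1.18, so CCND1 was lower by more than 1 on each of these scales. Of the 13741 genes, 2.04% had a lower log2 ratio of FPKM. CCND1 lies on chromosome 11 from 69455924 to 69469242, and its exons overlap LTO1 on the opposite strand, whose FPKM was 12.9 and 11.6.

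The D-type cyclin CCND3 differed in the opposite direction. CCND3 had 225.1 FPKM in the KD column and 105.8 in the CTRL column, a log2 ratio of 1.08, which was 0.90 on count shares and 0.78 with the trend removed, below 1 on both. The median of all genes on count shares was -0.21, which was not subtracted here. CCND2 was listed at 0 in both columns and has no ratio. CCND1 thus made up 11.2% of the FPKM of CCND1 and CCND3 together in the KD column and 37.6% in the CTRL column. The ratio of CCND1 to CCND3 in counts differed between the columns by a log2 value of -2.29 (-2.41 to -2.18), a comparison within each column that no scaling of a whole column can alter, and by -1.96 with the trend removed. The FPKM of both genes together was 253.4 in the KD column and 169.6 in the CTRL column.

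CDK6, a kinase partner of the D-type cyclins, was the 1 gene of the 10 that was higher by more than 1. Its FPKM was 45.6 (44.5 to 46.7) in the KD column and 22.0 (21.2 to 22.8) in the CTRL column, a log2 ratio of 1.02. It had the most counts of the 10 in the KD column, 6542 against 3184 in the CTRL column, and the longest annotated transcript of the 10 genes, at 11663 nt. On count shares the log2 ratio was 0.81 (0.75 to 0.87), below 1, and with the trend removed it was 1.28. Relative to the median of all genes on count shares, which was -0.21, CDK6 was at 1.02. CDK6 was the only one of the 10 genes that was higher on all 4 scales (FPKM, counts as given, count shares and FPKM with the trend removed).

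CDK4, the other G1 kinase, was the most abundant of the 10 genes per length. Its FPKM was 283.4 (273.6 to 293.4) in the KD column and 277.3 (267.1 to 287.7) in the CTRL column, a log2 ratio of 0.03, and these intervals overlap. The log2 ratio was -0.069 (-0.14 to 0.0046) on count shares and -0.12 with the trend removed, so that its sign depended on the scale. The locus the table gives for CDK4, on chromosome 12 from 58117543 to 58154190, is wider than the gene in GENCODE, from 58141510 to 58149796. This was not particular to CDK4. The loci given for CDK2, from 56347888 to 56367101, and for CCNE2, from 95825538 to 96128683, were among others also wider than the gene. CDK4 exons overlap TSPAN31, which had an FPKM of 19.2 and 22.3. The FPKM of CDK6 was 0.161 of that of CDK4 in the KD column and 0.0793 of it in the CTRL column. In counts, the ratio of CDK6 to CDK4 was higher by a log2 value of 0.88 (0.78 to 0.97) in the KD column.

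Cyclin E, the partner of CDK2 at the entry into S phase, was lower for each of its genes. CCNE1 had an FPKM of 23.2 (21.0 to 25.6) in the KD column and 37.8 (34.9 to 40.8) in the CTRL column, a log2 ratio of -0.68. CCNE2 was the least abundant of the 10 genes, at 3.32 (2.69 to 4.06) and 7.19 (6.14 to 8.36), a log2 ratio of -0.92. On count shares the log2 ratios were -0.93 (-1.11 to -0.75) for CCNE1 and -1.06 (-1.43 to -0.68) for CCNE2. CCNE2 made up 12.5% of the cyclin E FPKM in the KD column and 16.0% in the CTRL column, and the ratio of CCNE2 to CCNE1 in counts differed by -0.12 with an interval of -0.53 to 0.28 that includes 0. In FPKM with nothing added the same difference was -0.41. With the trend removed, from FPKM with 1 added, it was 0.13, so the sign of this difference depended on the scale. CCNE2 exons overlap INTS8 on the opposite strand, with an FPKM of 13.8 and 19.9, which is above that of CCNE2 itself.

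CCNA2, CCNB1 and CDK1 were each lower in the KD column on all 4 scales, while the related CCNB2 was not. CCNA2, the cyclin of S phase and early mitosis, had an FPKM of 29.5 (27.7 to 31.4) in the KD column and 53.7 (51.3 to 56.3) in the CTRL column, a log2 ratio of -0.84. CCNB1, the mitotic partner of CDK1, had 112.0 (107.6 to 116.5) and 176.8 (171.2 to 182.6), a log2 ratio of -0.65. CDK1 had 55.1 (51.9 to 58.4) and 95.1 (90.8 to 99.5), a log2 ratio of -0.78. None of the 3 passed a log2 ratio of -1 on FPKM, and on count shares they were at -1.09, -0.82 and -0.93. Each had a GC content of 41.9% or less, and with the trend removed their log2 ratios were nearer to 0, at -0.69, -0.51 and -0.54. CCNB2, the second mitotic B-type cyclin, had an FPKM of 89.5 in the KD column and 80.6 in the CTRL column, a log2 ratio of 0.15, which was -0.043 on count shares. CCNB1 was 55.6% of the FPKM of CCNB1 and CCNB2 together in the KD column and 68.7% in the CTRL column, and the ratio of CCNB1 to CCNB2 in counts differed by -0.78 (-0.91 to -0.65).

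Promoters of these 3 genes are shown because all 3 genes were lower in the KD column and theirs are textbook cell cycle promoters. The 120 bases before the start are given from RefSeq on GRCh38.p14, with CCAAT on either strand (so also ATTGG) and TTTGAA on either strand (so also TTCAAA) in capitals. The first is a CCAAT box, which NF-Y binds, and the second is a common form of the cell cycle homology region. Other forms of that region were not searched, so lower case does not mean that it is absent.
CDK1, chr10:60778358-60778477, plus strand: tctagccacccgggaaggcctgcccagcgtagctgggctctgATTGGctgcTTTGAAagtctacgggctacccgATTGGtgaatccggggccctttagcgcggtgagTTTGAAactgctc
CCNA2, chr4:121823884-121824003, minus strand: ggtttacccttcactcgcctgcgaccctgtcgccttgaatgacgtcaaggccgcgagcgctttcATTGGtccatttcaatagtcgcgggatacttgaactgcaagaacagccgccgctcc
CCNB1, chr5:69167030-69167149, plus strand: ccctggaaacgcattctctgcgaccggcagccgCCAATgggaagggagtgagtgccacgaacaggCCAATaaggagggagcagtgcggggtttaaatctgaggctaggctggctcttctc
CDK1 has 2 listed starts, of which the start with matches in these bases is shown, with 2 matches to CCAAT and 2 to TTTGAA. CCNB1 has 2 matches to CCAAT and CCNA2 has 1. CCAAT occurs in 34.6% and TTTGAA in 15.2% of the 35116 promoters of the same table, each read from 250 bases before to 50 bases after the start. Promoters were listed for 7 of the 10 genes, and CCAAT was found for CDKN1B and for these 3 genes, but not for CDK4, CDK6 or CCNE1. CDK2, CCND1 and CCNE2 were not listed. A match describes letters and not a site in use.

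CDKN1B, which encodes the inhibitor p27, was lower by less than the cyclins. Its FPKM was 25.2 (23.5 to 27.1) in the KD column and 31.6 (29.6 to 33.6) in the CTRL column, a log2 ratio of -0.31. On count shares it was at -0.55 (-0.69 to -0.42) and with the trend removed at -0.16, the smallest of the 8 values below 0 on that scale after CDK4. The ratio of CDKN1B to CDKN1A, the related inhibitor p21, differed in counts by 0.12, with an interval of -0.04 to 0.28 that includes 0, and by 0.67 with the trend removed.

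**Figure D4:**
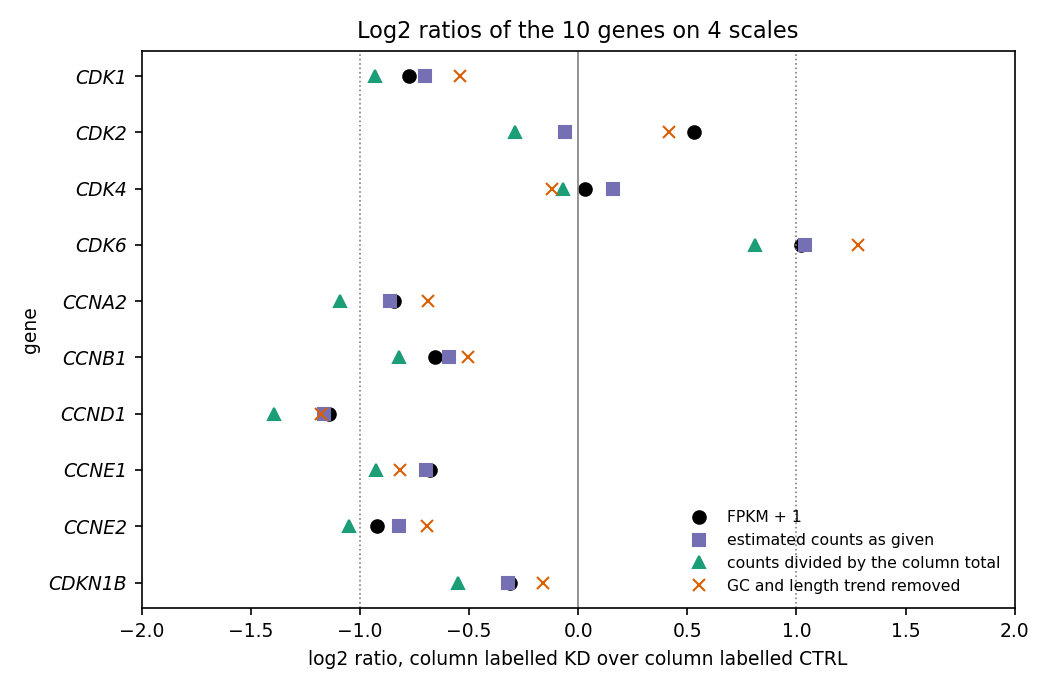
Log2 ratio of the KD column over the CTRL column for the 10 genes on 4 scales: FPKM + 1 (black circles), estimated counts as given (squares), counts divided by the column total (triangles) and FPKM with the trend removed (crosses). Dotted lines mark -1 and 1. The 4 values of CDK2 run from -0.29 to 0.53 and those of CDK4 from -0.12 to 0.16, across 0, and those of the other 8 genes stay on 1 side.

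The order of the levels per length also changed. By FPKM in the CTRL column, the order was CDK4, CCNB1, CDK1, CCND1, CDK2, CCNA2, CCNE1, CDKN1B, CDK6 and CCNE2, and the neighbours CCND1 and CDK2 had overlapping counting intervals. In the KD column the order was CDK4, CCNB1, CDK2, CDK1, CDK6, CCNA2, CCND1, CDKN1B, CCNE1 and CCNE2. There the intervals overlapped between the neighbours CCNA2 and CCND1, CCND1 and CDKN1B, and CDKN1B and CCNE1. CDK2 was at 0.659 of the FPKM of CDK1 in the CTRL column and at 1.65 times it in the KD column. In counts, the ratio of CDK2 to CDK1 differed by a log2 value of 0.64 (0.50 to 0.79) against 1.33 in FPKM.

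The regulators of these genes were read from lists, with log2 ratios of FPKM unless another scale is named. Of all genes, 48.9% were below 0 on FPKM, 61.9% on count shares and 50.8% with the trend removed. At 1 or more stood 8.51% on FPKM, 6.92% on count shares and 5.15% with the trend removed. At -1 or less stood 3.27%, 9.83% and 3.63%, in the same order. Each count below is read against these percentages. On count shares the median of all genes was -0.21, which was not subtracted below. Of 13 genes for the retinoblastoma family and the E2F and DP transcription factors, which bind the promoters of many S phase genes, 11 were below 0 and 2 above 0, with a median log2 ratio of FPKM of -0.49 and 0 past -1 or 1. The most abundant was TFDP1, at 100.3 FPKM in the KD column and 180.9 in the CTRL column. On count shares 12 of the 13 were below 0 and 2 were past -1, E2F2 at -1.11 and E2F7 at -1.06. With the trend removed 11 were below 0 and E2F2 was past -1, at -1.05. Of the 6 other CDK inhibitors, 4 were below 0, and the median was -0.33 with 0 past -1 or 1. CDKN2D was past -1 on count shares, at -1.13, and with the trend removed, at -1.23, from only 40 counts in the KD column and 75 in the CTRL column. The most abundant was CDKN2A, at 341.9 and 293.7 FPKM. Of 5 genes for the kinases and phosphatases of the inhibitory CDK phosphorylation, 3 were below 0, with a median of -0.30. On counts as given 2 of the 5 were below 0 and the median was 0.07. On count shares 5 were below 0 and the median was -0.16. PKMYT1 was the most abundant of the 5, at 59.9 and 78.6 FPKM. Its log2 ratio was -0.38, which was -0.12 on count shares and -1.20 with the trend removed. The counts of PKMYT1 were higher in the KD column, at 692 against 639.

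Among 9 genes of the ubiquitin ligases that act on cyclins and p27 and of their regulators, the median was 0.09 on FPKM but -0.037 on count shares and -0.023 with the trend removed, and FBXO5 was the single gene past 1 in either direction. FBXO5, which encodes the inhibitor EMI1 of the anaphase-promoting complex, had an FPKM of 7.32 in the KD column and 16.2 in the CTRL column, a log2 ratio of -1.05 from 173 and 384 counts, which was -0.79 with the trend removed. SKP1 was the most abundant of them, at 403.8 and 480.8. The 3 genes of the CDK-activating kinase had log2 ratios from -0.10 to 0.29, with CDK7 the most abundant at 45.7 and 37.2 FPKM. The other 11 CDKs and cyclins, mostly of transcription, had a median of -0.13 and 0 past -1 or 1, and CCNK was the most abundant at 39.1 and 36.3. Of 6 other cyclins of the cell cycle, 3 passed the filter, CCNB2, CCND3 and CCNF, and CCND3 alone was past 1.

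The 10 genes were set beside 31 genes of the DNA replication machinery and 17 of the mitotic spindle and checkpoint. The replication genes had a median log2 ratio of -0.19, with 19 below 0, and the mitotic genes one of -0.30, with 12 below 0. CDT1 was the replication gene past 1, at 44.8 FPKM in the KD column and 21.2 in the CTRL column, a log2 ratio of 1.05 that was 0.83 on count shares and 0.36 with the trend removed, and no mitotic gene was past -1 or 1 on FPKM. On count shares no replication gene was higher by 1 or more and 5 were lower by 1 or more, MCM6, ORC4, CDC6, CDC45 and PCNA, at -1.29 to -1.07, as was the mitotic gene CENPE, at -1.26. By mean FPKM the most abundant genes were MCM7, at 260.3 and 237.0, and PLK1, at 132.4 and 117.6, although TPX2, at 128.0, was above PLK1 in the CTRL column. The median of the 10 genes, -0.67, lay below both medians, and no test of that difference was possible.

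**Figure D5:**
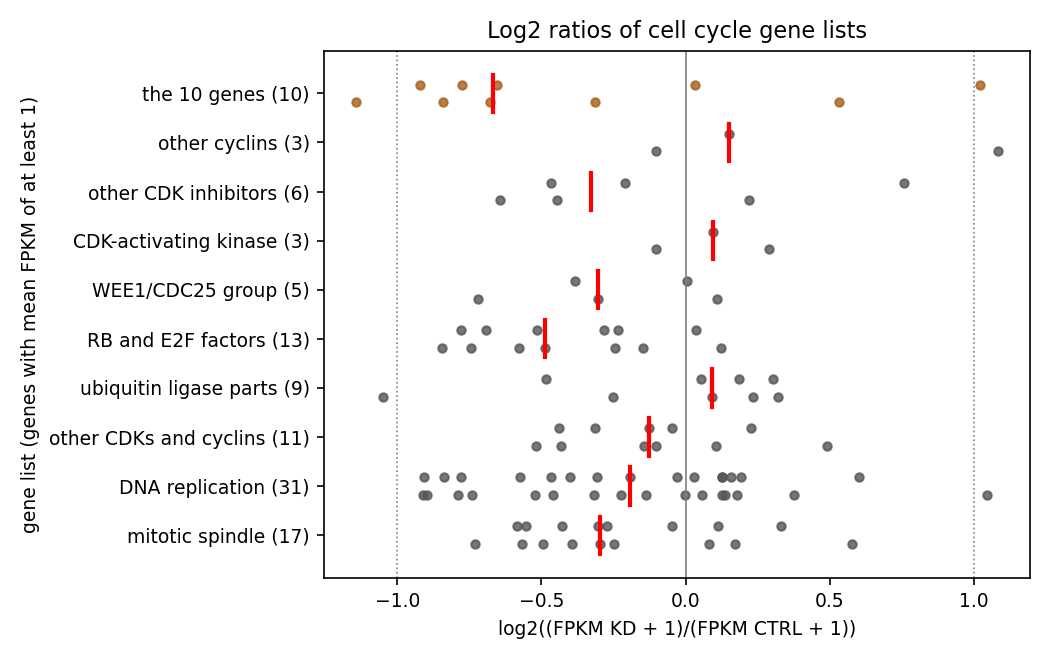
Log2 ratio of (FPKM + 1), KD column over CTRL column, for each gene with a mean FPKM of at least 1 in 10 lists, with the number of genes in brackets. Red lines are medians, at -0.67 for the 10 genes, -0.49 for the RB and E2F factors and -0.19 for DNA replication, and dotted lines mark -1 and 1.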

How the data were processed

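RNA-seq libraries labelled K562, 3 per siRNA group, were mapped by the authors with TopHat 1.4.1 to hg19 and Ensembl transcripts. FPKM was calculated with Cuffdiff 2.2.0, per the labels' processing notes and the methods. The deposited table holds 1 FPKM and 1 estimated count per gene and group; how libraries were combined is not stated. Of the positive counts, 78.4% (KD) and 79.4% (CTRL) were whole within 0.0001; counts were rounded for intervals. Columns with the authors' own fold changes and p-values, and 2 columns of group averages, were not used.

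Genes whose FPKM averaged 1 or more over the columns were kept, and log2 ratios of single genes were taken of FPKM + 1. Comparisons of 2 genes in FPKM had nothing added. For single genes the exact Poisson interval of each count, the exact binomial interval of count shares and the large-sample interval of the log odds ratio for ratios between 2 genes were computed, all covering counting error only. For ratios of counts over all genes, 0.5 was added to each count. GC content and length came from the longest GENCODE release 44 transcript (96.8% of genes matched by ID), and overlapping genes from the same annotation, which is later than that of the authors. Ratios of count per FPKM over all genes used genes with at least 100 counts per column. Members and lists were chosen with earlier results of these data known. Genes named are the members and, in each list, those past a log2 ratio of 1 and the most abundant; CCNB2, CCND2, CCNF, CDKN1A, CDKN1C, CDKN2D, the E2F genes, MCM6, ORC4, CDC6, CDC45, PCNA, CENPE, TPX2, the markers and the overlapping genes were named after their values were seen. Of the erythroid markers, 2 planned genes are not reported here. The functions were tested on simulated data. Computation used scipy 1.17.1 with numpy 2.4.6 and pandas 2.3.3 under Python 3.11.15, and plots matplotlib 3.10.9. The column totals are sums of estimated counts and do not give the sequencing depth. Each total was below the number of mapped pairs that the study reports for any single library. The estimated counts may thus not be plain numbers of fragments, as the intervals take them to be.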

Additional observations from a re-analysis of the deposited data

How the results depend on the processing

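No paired analysis was possible because only 1 FPKM and 1 count stand for the 3 libraries of a group, and leaving out single libraries was not run for the same reason. Over 22 results and 134 alternative values, 109 moved by no more than their limit (the distance from the middle of a gene's counting interval to its end, the order-statistic interval of a list's median, or 1.5 times a count of genes) and 25 moved further. The cause was not tested except where stated.

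Dividing counts by the column totals (setting the totals equal lowers every count ratio by 0.23) gave CDK1 -0.93, CDK2 -0.29, CDK4 -0.069, CDK6 0.81, CCNA2 -1.09, CCNB1 -0.82, CCND1 -1.40, CCNE1 -0.93, CDKN1B -0.55, a CDK-activating kinase median of -0.14 and 1351 genes lower by 1 or more against 450. With the GC and length trend subtracted, values were CDK1 -0.54, CDK2 0.42, CDK4 -0.12, CDK6 1.28, CCNA2 -0.69, CCNB1 -0.51, CDKN1B -0.16, a CDK-activating kinase median of 0.35 and 685 genes higher by 1 or more against 1169. Counts as given, chosen after seeing the data, gave CDK2 -0.059, CDK4 0.16 and 765 genes lower. A pseudocount of 0.1 gave 791 lower, and an FPKM over 5 in at least 1 group gave 292, where fewer genes were counted. Of all genes past 1 in either direction, 72.2% were higher on FPKM, 41.3% on count shares and 58.6% with the trend removed; the median of all genes was 0.01 on FPKM and -0.21 on count shares. Relative to that median, CDK2 was at -0.08, CCND1 at -1.19 and CDK6 at 1.02 on count shares. Depth limits CCNE2 most, with 95.1 and 168.4 counts.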

Other observations

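CDKN2A, which encodes the CDK4 and CDK6 inhibitor p16, was the most abundant of the 6 other CDK inhibitor genes, at 341.9 FPKM (KD) and 293.7 FPKM (CTRL), with estimated counts of 2707 and 2102. As background, K562 cells are known for the loss of the CDKN2A locus. The erythroid transcription factor genes GATA1, KLF1 and TAL1 were listed at 0 in both columns. Which cells these columns hold was not tested.

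CDKN1C, which encodes the inhibitor p57, had the highest log2 ratio of FPKM among the 6 other CDK inhibitors, at 0.76, from 95.2 FPKM (KD) and 55.9 FPKM (CTRL). Its log2 ratio was 0.65 on count shares and 0.056 once the GC and length trend was subtracted. CDKN1A, which encodes p21, was at 72.0 and 98.3 FPKM, a log2 ratio of -0.45. These genes were named after their values were seen.

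Among the E2F genes, the activators E2F1, E2F2 and E2F3 had log2 ratios of FPKM of -0.24, -0.78 and -0.51, and the repressors E2F7 and E2F8 had -0.58 and -0.28. E2F8 had a mean FPKM of 2.84 and 101 counts in each column, so its counts as given did not differ. E2F4, at 33.5 FPKM (KD) and 32.7 FPKM (CTRL), had a log2 ratio of 0.03, which was -0.22 on count shares.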
